A study of Mus musculus with 9 samples.

Results

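Collagen receptors are the cell surface proteins through which cells hold on to and sense collagen. The 7 genes described here encode the alpha subunits of the collagen-binding integrins (Itga1, Itga2, Itga10 and Itga11), the beta 1 subunit that each of these alpha chains needs as its partner (Itgb1), and the discoidin domain receptors Ddr1 and Ddr2. They were chosen by gene symbol, with Itga11 as the gene named in the title of the series, and all 7 were found among the 54134 entries of the count table. RNA was sequenced from wild-type mouse cells labelled HT22, a hippocampal neuronal line, although the cell type label reads HT-4. There were 3 groups of 3 libraries: control cells with no intervention, cells given oxyhemoglobin (Hb), and cells given oxyhemoglobin together with NTR1 (Hb+NTR1, called ganyu in the labels). The series title writes NGR1 for the agent, no group received it alone, and neither dose nor time is given. Whether replicates were grown as separate cultures is not in the labels. The p-values therefore speak only of the spread among these 9 libraries, which could be purely technical.

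An integrin is a pair of 1 alpha and 1 beta chain, and the alpha chain sets which ligand is bound. Alpha 11 and alpha 2 bind mainly fibrillar collagens, alpha 1 prefers collagens of basement membranes, and alpha 10 is best known from cartilage. Beta 1 has many other alpha partners, so its level does not track the collagen-binding pairs alone. The discoidin domain receptors are receptor tyrosine kinases that are switched on slowly by collagen itself, with Ddr2 typical of mesenchymal cells and Ddr1 of epithelial cells. Alpha 11 is known mainly from fibroblasts and other mesenchymal cells.

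The libraries held 13415648 to 16893746 counts each. The Hb+NTR1 libraries stood apart, with correlations of log2 CPM across genes of 0.943 to 0.951 with the libraries of the other groups, against 0.988 to 0.993 within groups. CPM is a gene's count relative to its library's total, scaled by TMM factors. Defining neuronal markers were largely missing: 18 of 22 lay under 1 CPM in every group, and Map2, Snap25, Slc17a6 and Gad1 had no count in any of the 9 libraries. The 22 neuronal markers summed to 128 to 135 CPM in control, 133 to 141 CPM in Hb and 59.8 to 63.4 CPM in Hb+NTR1. Of the 5 tested, 4 fell and 1 rose in Hb+NTR1 against Hb, where 31.7% of all genes fell and 30.7% rose. Fibroblast markers were abundant, with a summed level of 16844 to 17755 CPM in control and 14165 to 15328 CPM in Hb, and the 11 markers together had only 2759 to 2875 CPM in Hb+NTR1. Astrocyte markers summed to 314 to 349 CPM in control, 234 to 251 CPM in Hb and 88.8 to 95.4 CPM in Hb+NTR1. Slc1a3 led this sum in control and Hb, and Gja1 led it in Hb+NTR1. Of the 7 astrocyte markers, 5 lay under 1 CPM in every group, with Aqp4 at 0 throughout. Oligodendrocyte and endothelial markers summed to at most 4.65 CPM in any library. Microglia and macrophage markers reached 48.1 to 51.1 CPM in Hb+NTR1, led by Cd68, against 18.1 to 29.3 CPM in the other groups. Tmem119 led in those groups, and 6 of the 8 markers lay under 1 CPM in every group. Of the 2 tested, 1 rose and 1 fell in Hb+NTR1 against Hb, where 30.7% of all genes rose and 31.7% fell. Against control, the authors' deposited comparison gives log2 fold changes of 3.76 for Cd68 and -2.62 for Tmem119. Smooth muscle and pericyte markers totalled 217 to 223 CPM in control, 172 to 229 CPM in Hb and 122 to 134 CPM in Hb+NTR1. Cspg4 led this sum in every group, and 5 of the 8 markers lay under 1 CPM in each. Platelet and erythroid markers totalled 8.83 to 12.4 CPM in control, 12.8 to 15.6 CPM in Hb and 14.2 to 16.6 CPM in Hb+NTR1. The part of these shifts in the receptor results was not tested, and fewer cells of a type cannot be told apart from less RNA per cell.

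To set the genes beside each other, counts were scaled by the annotated exon length to RPKM (reads per kilobase of exon, scaled to library size). Itgb1 was by far the most abundant, at 219 ± 7.88 RPKM in control (SD, n = 3), followed by Ddr2 at 39.7 ± 1.12 and Ddr1 at 12.4 ± 0.613 RPKM. The collagen-binding alpha chains were all scarce. Itga10 had 0.513 ± 0.0312 RPKM in control, Itga11 had 0.317 ± 0.0510 RPKM and Itga1 had 0.0262 ± 0.0166 RPKM. Itga2 had no count in the control and Hb libraries and 1 count in 1 Hb+NTR1 library. This order held in all 3 group means, and no neighbours in the order overlapped between libraries in control or Hb. In Hb+NTR1 the Itga11 libraries, from 0.0135 to 0.0820 RPKM, overlapped those of Itga1, from 0.0110 to 0.0302 RPKM. In control, 15.4% of the 13810 genes tested had a lower mean CPM than Itga11, against 99.3% for Itgb1 and 97.3% for Ddr2. In Hb+NTR1 only 1.47% of tested genes lay below Itga11.

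**Figure D1:**
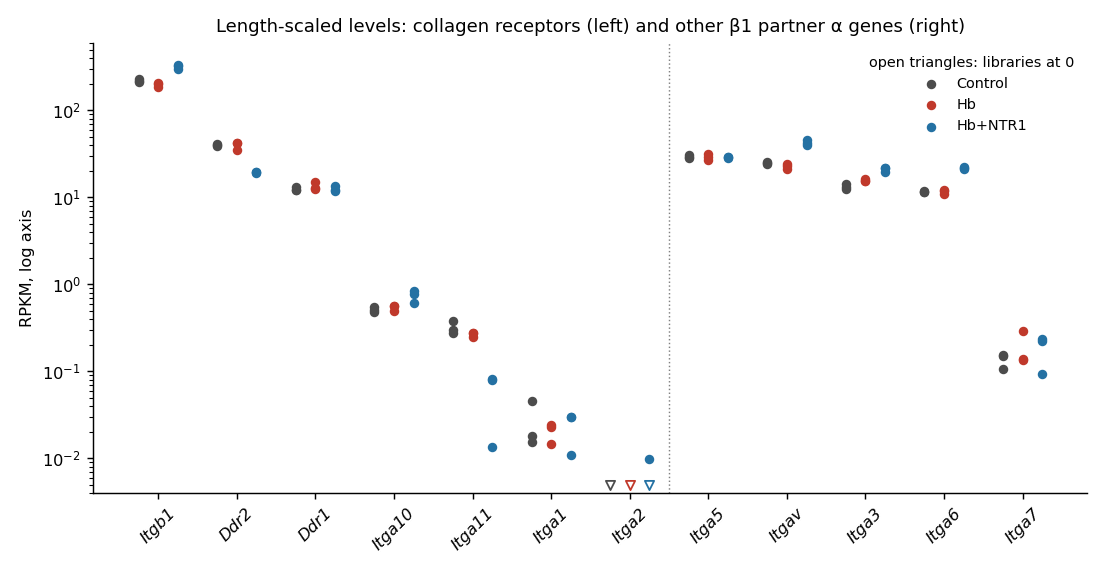
Length-scaled level (RPKM, log axis) of each collagen receptor gene and of 5 other alpha partners of beta 1 in every library, by group, with libraries at 0 as open triangles. Itgb1 sits at the top in all groups, followed by Ddr2 in control and Hb. In Hb+NTR1 Ddr2, at a mean of 19.4 RPKM, lies below Itgav, Itga5, Itga6 and Itga3. The 4 collagen-binding alpha chains lie below 1 RPKM, under Itga5, Itgav, Itga3 and Itga6.

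The alpha chains that bind collagen made up a small part of all alpha chains that can pair with beta 1. They summed to 0.856 ± 0.0975 RPKM in control, which is 1.07% ± 0.115 of the summed RPKM of the 12 alpha genes (SD, n = 3). The share was 1.03% ± 0.0368 in Hb and 0.722% ± 0.141 in Hb+NTR1. The bulk came from fibronectin, vitronectin and laminin receptor chains, namely Itga5 at 29.5 ± 0.977 RPKM in control, Itgav at 24.7 ± 0.715, Itga3 at 13.3 ± 0.992 and Itga6 at 11.7 ± 0.187 RPKM.

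Itga11 (ENSMUSG00000032243, GRCm38 chr9:62677826-62783982, plus strand) encodes the alpha 11 chain. Its raw counts were 32, 23 and 20 in the control libraries, 18, 21 and 19 in the Hb libraries and 6, 6 and 1 in the Hb+NTR1 libraries. These correspond to 1.92, 1.53 and 1.43 CPM in control, 1.27, 1.43 and 1.41 CPM in Hb, and 0.411, 0.421 and 0.0695 CPM in Hb+NTR1. All Hb+NTR1 libraries lay below all others, whereas the control and Hb libraries overlapped, with 1 control library the highest of all. The third Hb+NTR1 library, at 1 count, lies below the 3 counts that a count of 0 would still allow, a limit of 0.210 CPM there. Over the 3 libraries of a group, 75, 58 and 13 counts give exact Poisson 95% intervals of 1.29 to 2.06 CPM in control, 1.04 to 1.77 CPM in Hb and 0.160 to 0.514 CPM in Hb+NTR1, which cover counting error only.

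Itga11 was lower in Hb+NTR1 than in Hb by a log2 fold change of -2.16 ± 0.475 (SE), a 4.46-fold fall (edgeR quasi-likelihood test, Benjamini-Hochberg adjusted p = 0.000389). Against control the log2 fold change was -2.41 ± 0.460, a 5.32-fold fall (edgeR adjusted p = 7.78e-05). These 2 comparisons share the Hb+NTR1 libraries. Without the third Hb+NTR1 library, the log2 fold change was still -1.70 against Hb and -1.95 against control, at edgeR adjusted p = 0.00499 and 0.00131. Of all genes, 2.15% of those tested fell at least as far as Itga11 against Hb and 1.74% against control. In the authors' deposited table of Hb+NTR1 against control, Itga11 is listed with a log2 fold change of -2.44 and an adjusted p of 0.000535. It is the only one of the 7 genes in the authors' deposited table, where it ranks 500 among 691 genes by the size of the change. Of the genes on the lists used here, none in that table changed less than Col9a1, at a log2 fold change of -2.04 and rank 675. Against control Ddr2, at -1.03, and Itgb1, at 0.55, changed less than that. Whether the authors set a cut-off is not known here, so the absence of the other receptors does not mean they were unchanged.

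Oxyhemoglobin alone gave no call for Itga11. The group means were 1.63 ± 0.262 CPM in control and 1.37 ± 0.0881 CPM in Hb (SD, n = 3), and the log2 fold change was -0.25 with a 95% interval from -0.99 to 0.49 (edgeR adjusted p = 0.788).

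**Figure D2:**
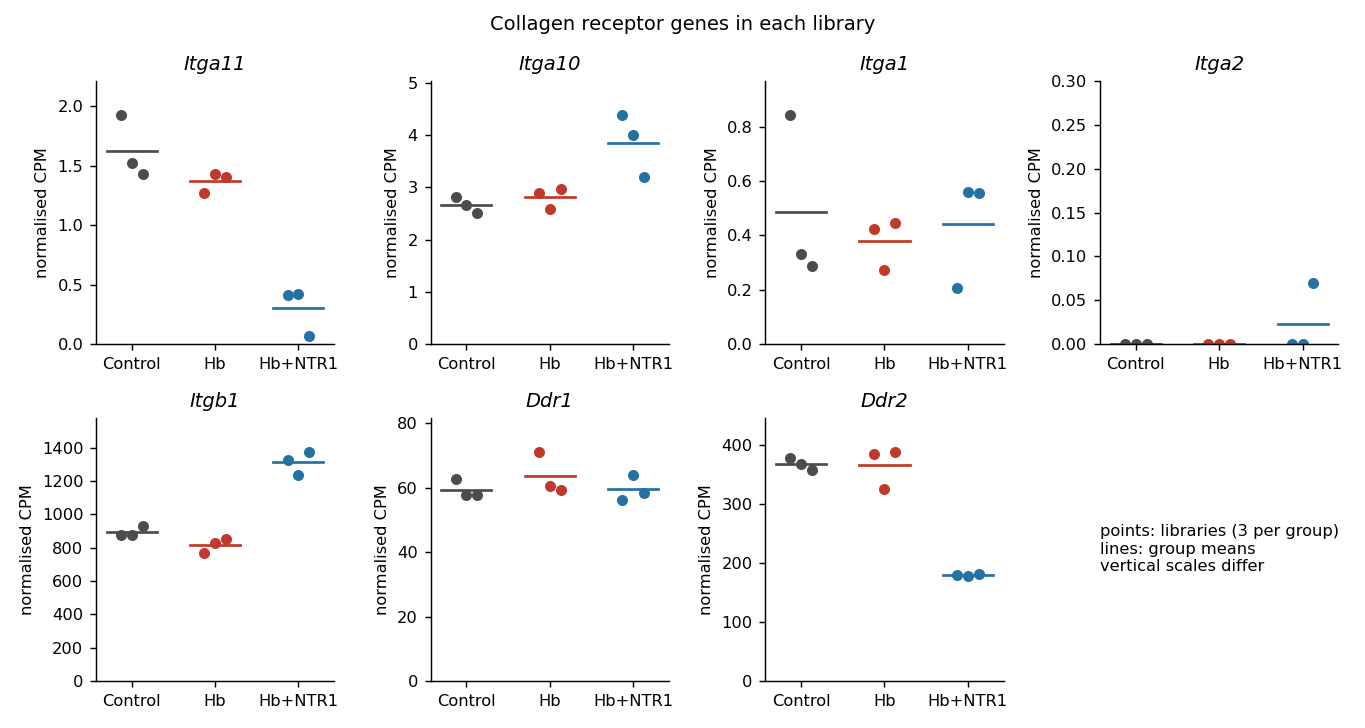
Normalised CPM of each collagen receptor gene in the 3 libraries of each group, with group means as lines and a separate vertical scale from 0 for each gene. Itga11 and Ddr2 drop in all 3 Hb+NTR1 libraries, Itgb1 is highest there, and Ddr1 overlaps between all groups.

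The stretch before the start of Itga11 is shown beside that of Itgb1, since the pair moved in opposite directions with added NTR1. Both are from RefSeq on GRCm38.p6, 250 bases up to the annotated start, written 5′ to 3′ along the gene, with capitals for matches to any of 5 motifs, each searched on both strands. The motif of SP factors was searched as GGGCGG. The TATA box was searched as TATAAA. For AP-1 the letters were TGACTCA. For TEAD factors they were GGAATG. The SMAD motif was searched as CAGACA. No matches overlap in these windows.
Itga11, chr9:62677605-62677854, plus strand: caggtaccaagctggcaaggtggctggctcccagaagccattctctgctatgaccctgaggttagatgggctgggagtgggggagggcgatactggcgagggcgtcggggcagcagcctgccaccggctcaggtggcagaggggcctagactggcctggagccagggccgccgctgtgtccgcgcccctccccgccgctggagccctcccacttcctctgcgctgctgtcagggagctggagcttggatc
Itgb1, chr8:128685404-128685653, plus strand: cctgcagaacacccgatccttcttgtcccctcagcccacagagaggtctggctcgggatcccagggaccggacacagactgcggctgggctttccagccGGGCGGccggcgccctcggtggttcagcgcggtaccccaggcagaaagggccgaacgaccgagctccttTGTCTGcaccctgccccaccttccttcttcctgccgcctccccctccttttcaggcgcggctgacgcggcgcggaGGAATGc
The Itga11 window held none of the 5 motifs. The Itgb1 window held the SP, SMAD and TEAD motifs 1 time each, in this order, the SMAD motif on the opposite strand. Among 32817 RefSeq windows of the same length, 32.7% held the SP motif, 12.4% the TATA box, 4.46% the AP-1 motif, 12.6% the TEAD motif and 17.1% the SMAD motif. Both windows are rich in G and C, at 68.4% for Itga11 and 68.0% for Itgb1, against a median of 52.4%. The RefSeq start of Itga11 lies a little downstream of the GENCODE M21 start, and no binding was measured.

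Itga10 (ENSMUSG00000090210.7, GRCm38 chr3:96645584-96664519, plus strand) encodes alpha 10 and was the most abundant of the collagen-binding alpha chains. It had 2.83, 2.66 and 2.50 CPM in control, 2.89, 2.59 and 2.96 CPM in Hb, and 4.38, 3.998 and 3.20 CPM in Hb+NTR1. All Hb+NTR1 libraries were above the others. The log2 fold change was 0.53 ± 0.222 (SE) against control (edgeR adjusted p = 0.0403) and 0.45 ± 0.223 against Hb (edgeR adjusted p = 0.0800). The first call is fragile: it held in 8 of 15 alternatives. It ended by DESeq2 (adjusted p = 0.112), with no filter on low counts (edgeR adjusted p = 0.110), without control library 1, 2 or 3 (edgeR adjusted p = 0.0570, 0.0780 and 0.0955) and without the first or second Hb+NTR1 library (edgeR adjusted p = 0.153 and 0.0928). Against Hb it passed only without the third Hb+NTR1 library (edgeR adjusted p = 0.0474). Exons of Itga10 share 1739 bases with those of the same-strand gene model Gm42957, so its counts depend on how shared reads were assigned.

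Itga1 (ENSMUSG00000042284.10, chr13:114953096-115101964, minus strand), for alpha 1, and Itga2 (ENSMUSG00000015533.9, chr13:114833081-114932100, minus strand), for alpha 2, did not pass the filter on low counts and were not in the main test. Itga1 had 14, 5 and 4 counts in control, 6, 4 and 6 in Hb and 3, 8 and 8 in Hb+NTR1. The groups overlapped, and with no filter on low counts the edgeR adjusted p was 0.915 for Hb against control, 0.883 for Hb+NTR1 against Hb and 0.884 for Hb+NTR1 against control. Like Itga10, Itga1 shares exon sequence with a same-strand gene model, here 685 bases with Gm49395, so its counts depend on how shared reads were assigned. For Itga2 the single count leaves all groups at or under the floor, so no fold is given.

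Among the 4 collagen-binding alpha chains, Itga11 took 38.9, 36.0 and 35.9% of their summed RPKM in the control libraries, 29.9, 35.2 and 31.5% in Hb and 8.55, 9.29 and 2.02% in Hb+NTR1. The 3 groups did not overlap. Each of the 3 comparisons gave p = 0.1 in a two-sided exact permutation test, the smallest value that 3 against 3 libraries can give, and 0.1 after Benjamini-Hochberg adjustment over the 3. Their summed level hardly differed: against 0.856 ± 0.0975 RPKM in the control libraries it was 0.831 ± 0.0379 with oxyhemoglobin and 0.829 ± 0.141 with NTR1 added, within the spread between libraries.

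Itgb1 (ENSMUSG00000025809.15, chr8:128685654-128733200, plus strand), the beta 1 chain, had 875.5, 877 and 932 CPM in control and 767, 830 and 853 CPM in Hb. In Hb+NTR1 it had 1323, 1236 and 1373 CPM, higher than in any other library. It rose 1.60-fold against Hb, at a log2 fold change of 0.68 ± 0.0646 (SE; edgeR adjusted p = 2.77e-09), and 1.47-fold against control, at 0.55 ± 0.0645 (edgeR adjusted p = 8.08e-08). Between Hb and control, whose libraries did not overlap, the log2 fold change was -0.13 with a 95% interval from -0.26 to 0.0023, and it was not called (edgeR quasi-likelihood test, adjusted p = 0.317). Itga11 RPKM per 1000 Itgb1 RPKM was 1.75, 1.39 and 1.22 in control, 1.32, 1.37 and 1.31 in Hb, and 0.247, 0.271 and 0.0403 in Hb+NTR1. This ratio within a library does not depend on the scaling. It was lower in all Hb+NTR1 libraries than in the others, at p = 0.1 against either group in the exact permutation test, adjusted p = 0.15, where 0.1 is the smallest possible. Hb against control gave p = 0.7 in the exact permutation test.

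**Figure D3:**
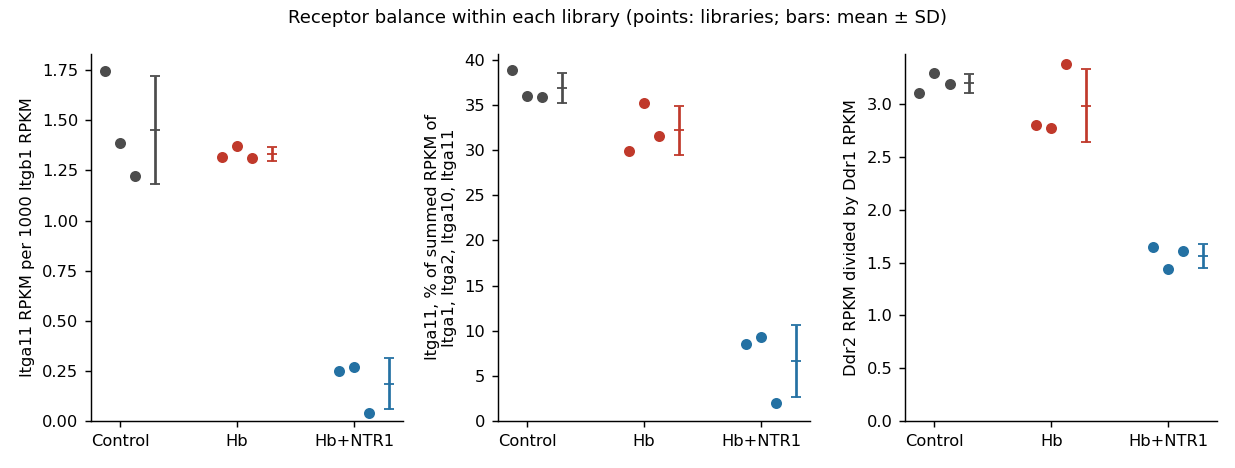
Ratios within each library, with points for libraries and bars for mean ± SD (n = 3): Itga11 RPKM per 1000 Itgb1 RPKM, the Itga11 share of the 4 collagen-binding alpha chains, and Ddr2 RPKM divided by Ddr1 RPKM. All 3 are lower in every Hb+NTR1 library than in every other library.

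Ddr2 (ENSMUSG00000026674.9, chr1:169972307-170110762, minus strand), the discoidin receptor for fibrillar collagens, had 378, 368 and 358 CPM in control and 386, 326 and 389 CPM in Hb. In Hb+NTR1 it had 179.5, 178 and 182 CPM, far below the other libraries and close together. It fell 2.04-fold against Hb, at a log2 fold change of -1.03 ± 0.0677 (SE; edgeR adjusted p = 4.51e-12), and 2.05-fold against control (edgeR adjusted p = 3.60e-12). Between Hb and control its log2 fold change was -0.0049, with a 95% interval from -0.14 to 0.13 (edgeR adjusted p = 0.984). Of the genes tested, 9.66% fell at least as far as Ddr2 in Hb+NTR1 against Hb. Exons of Ddr2 overlap those of the antisense gene 3110045C21Rik by 90 bases.

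Ddr1 (ENSMUSG00000003534.17, chr17:35681567-35704621, minus strand), the relative of Ddr2 that also binds collagens of basement membranes, was not called in any comparison. It had 62.8, 57.6 and 57.8 CPM in control, 71.1, 60.5 and 59.3 CPM in Hb, and 56.1, 64.0 and 58.4 CPM in Hb+NTR1, and the groups overlapped. Its log2 fold change was -0.098 against Hb, with a 95% interval from -0.27 to 0.071 (edgeR adjusted p = 0.307), and 0.00089 against control, with an interval from -0.17 to 0.17 (edgeR adjusted p = 0.993). Exons of Ddr1 overlap those of the antisense gene Gm4577 by 216 bases. Ddr2 RPKM divided by Ddr1 RPKM was 3.11, 3.29 and 3.19 in control, 2.80, 2.78 and 3.38 in Hb, and 1.65, 1.44 and 1.61 in Hb+NTR1. Ddr2 stayed above Ddr1 in every library on this scale, and the ratio was lowest in the 3 Hb+NTR1 libraries.

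The calls of the receptors have to be read against those of all genes tested. In Hb against control 0 of the 5 tested receptors passed an edgeR adjusted p of 0.05, where 3.65% of all genes did (1.88% higher and 1.77% lower), and DESeq2 also called 0. In the main edgeR fit 0 of the 5 had an unadjusted p under 0.05, the lowest being 0.0537 for Itgb1. By DESeq2 the unadjusted p of Itgb1 was 0.0257 (adjusted p = 0.244), and it also lay under 0.05 in some edgeR alternatives. In Hb+NTR1 against Hb 3 of 5 passed, 1 higher and 2 lower, where 62.3% of all genes passed (30.7% higher and 31.7% lower). In Hb+NTR1 against control 4 of 5 passed, 2 higher and 2 lower, where 63.6% passed (31.4% higher and 32.2% lower). These shares of 3 and 4 of 5 lie near the background, so they set the receptors apart from other genes in neither comparison. Libraries of the compared groups did not overlap for 1 of the 5 in Hb against control, where this held for 19.6% of all genes, for 4 in Hb+NTR1 against Hb, where it held for 64.7%, and for 4 in Hb+NTR1 against control, where it held for 69.9%. With libraries scaled by totals alone, the calls of Hb against control split into 377 higher and 196 lower, in place of 259 and 245, and no receptor was among them.

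**Figure D4:**
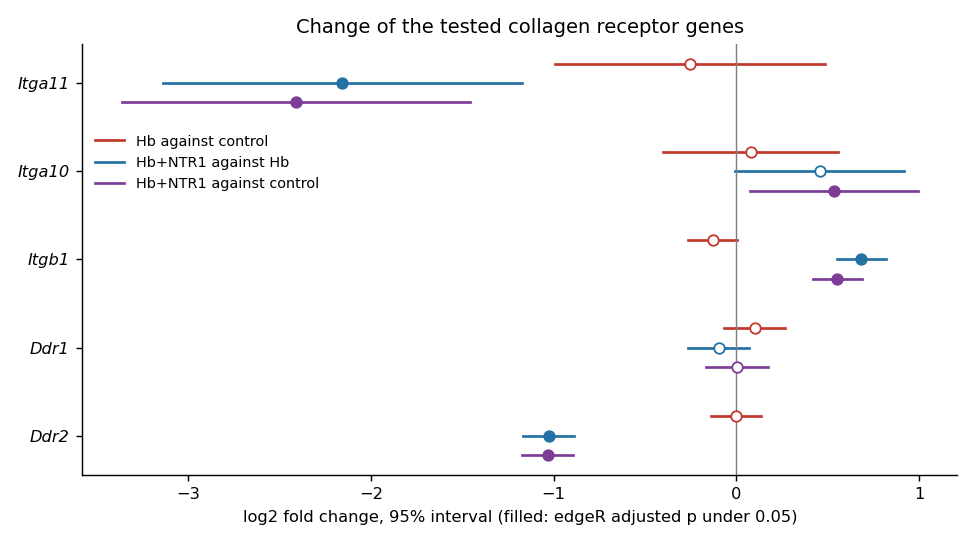
Log2 fold change with 95% interval for the 5 tested collagen receptor genes in the 3 comparisons, with filled points where the edgeR adjusted p was under 0.05. The intervals of Itga11 and Itga10 are the widest, and all 5 intervals of Hb against control include 0.

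The ligands moved in the same comparisons. Of 8 tested fibrillar collagen chains, 6 fell, 1 rose and 1, Col5a3, was not called in Hb+NTR1 against Hb, at a median log2 fold change of -1.35, against a median of -0.011 over all genes tested, of which 31.7% fell. Col3a1 went from 1769 ± 40.0 CPM in Hb to 71.0 ± 3.08 CPM in Hb+NTR1, a 24.9-fold fall (edgeR adjusted p = 2.19e-23). The type I collagen chains, a main ligand of alpha 11 and Ddr2, went from 2594 ± 261 to 245 ± 16.97 CPM for Col1a1 and from 7371 ± 422 to 943 ± 28.7 CPM for Col1a2. The chain that rose was Col11a2, from 3.66 ± 0.285 to 14.5 ± 1.85 CPM. Of 15 tested network and other collagen chains, 10 fell and 2 rose, at a median log2 fold change of -1.16, and the 2 became 1 without the third Hb+NTR1 library. Among them the type VI chains Col6a2, Col6a1 and Col6a3 fell 8.33-fold, 5.78-fold and 2.60-fold, and Col18a1 fell 4.17-fold.

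Against control the same lists showed 6 lower and 1 higher of 8 fibrillar chains (2 higher with library totals alone or without control library 2), and 11 lower and 4 higher of 15 others. Over all genes tested, 32.2% were lower and 31.4% higher in Hb+NTR1 against control. The basement membrane chain Col4a6 fell 3.18-fold there, from 309 ± 15.7 to 97.3 ± 0.832 CPM. In Hb against control, 1.77% of all genes tested were lower and 1.88% higher. Oxyhemoglobin alone gave 3 lower and 1 higher of the 8 fibrillar chains (edgeR), with Col1a1 from 3619 ± 220 to 2594 ± 261 CPM, Col5a2 from 808 ± 23.2 to 646 ± 5.95 CPM and Col1a2 from 9085 ± 220 to 7371 ± 422 CPM. Whether the collagen lists differ from other genes was not tested. The call of Col1a2 ended without control library 3 (edgeR adjusted p = 0.0541). The riser was Col5a3, from 5.72 ± 0.968 to 8.91 ± 1.62 CPM (edgeR adjusted p = 0.0353), and its call ended by DESeq2 (adjusted p = 0.0568), in a fit of only the 6 libraries (edgeR adjusted p = 0.0687) and without control library 1 or 3 or Hb library 1 or 3 (edgeR adjusted p = 0.0959 to 0.170). Col3a1, not called in the main fit, was called higher by DESeq2 (log2 fold change 0.19, adjusted p = 0.0151). It was also called higher with library totals alone and without Hb library 2 (edgeR adjusted p = 0.0251 and 0.0121). Of the 15 others 5 fell, or 3 without control library 1 or 3, and 2 rose with oxyhemoglobin, the risers being Col9a3, from 3.28 ± 0.0779 to 5.88 ± 0.114 CPM, and Col7a1, the anchoring fibril collagen, from 7.42 ± 0.0722 to 11.5 ± 1.36 CPM. Among those that fell were Col4a6, from 309 ± 15.7 to 233.5 ± 37.0 CPM, and Col18a1, from 58.7 ± 1.28 to 44.96 ± 5.20 CPM, whose call ended without control library 3 (edgeR adjusted p = 0.0676). The summed fibroblast markers given above include 3 of these chains and moved with them.

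Other receptors that bind collagen were few. Of 8 listed, Mrc2, which takes collagen up into the cell, and Adgrg1 were abundant enough to test. Mrc2 had 108.5 ± 4.70 CPM in control and 115 ± 9.38 CPM in Hb, and fell 1.51-fold to 76.0 ± 3.22 CPM in Hb+NTR1 (edgeR adjusted p = 1.36e-07 against Hb). Adgrg1 had 2.99, 2.45 and 2.38 CPM in the 3 groups and was not called. Cd36, a scavenger receptor, had no count in control and Hb and 6 to 15 counts per library in Hb+NTR1, below the filter. The authors' deposited table of Hb+NTR1 against control lists Cd36 as higher, at a log2 fold change of 5.97. Its adjusted p there is 0.000116, by a test not known here. With no filter on low counts, and by DESeq2, 1 gene of this list was called higher in both comparisons of Hb+NTR1.

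Among the 5 tested other alpha partners of beta 1, 0 fell by edgeR. In Hb+NTR1 against Hb 3 of 5 tested rose and 2 were not called, and the same counts held against control. The 60% called lies near the 62.3% and 63.6% of all genes in these comparisons. The laminin receptor chain Itga6 went from 105 ± 6.06 CPM in Hb to 196 ± 4.42 CPM, a 1.86-fold rise (edgeR adjusted p = 1.37e-11). Itgav, a chain of vitronectin receptors, rose 1.86-fold from 245 ± 15.5 to 456 ± 27.6 CPM, and the laminin receptor chain Itga3 rose 1.34-fold from 89.6 ± 3.40 to 120 ± 6.34 CPM. The fibronectin receptor chain Itga5 had 145 ± 11.3 CPM in Hb and 143.5 ± 2.55 CPM in Hb+NTR1 and was not called. Together the 12 alpha genes summed to 80.2 ± 2.44 RPKM without treatment and 80.6 ± 4.204 RPKM with oxyhemoglobin, against 115 ± 3.39 RPKM with NTR1 added. With oxyhemoglobin alone the main edgeR fit and DESeq2 called 0 of these partners, and 1 of the 5, Itga3, had an unadjusted p under 0.05. Itga3 was called higher with library totals alone, with the replicate block and without Hb library 2 (edgeR adjusted p = 0.0248, 0.0393 and 0.0193).

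**Figure D5:**
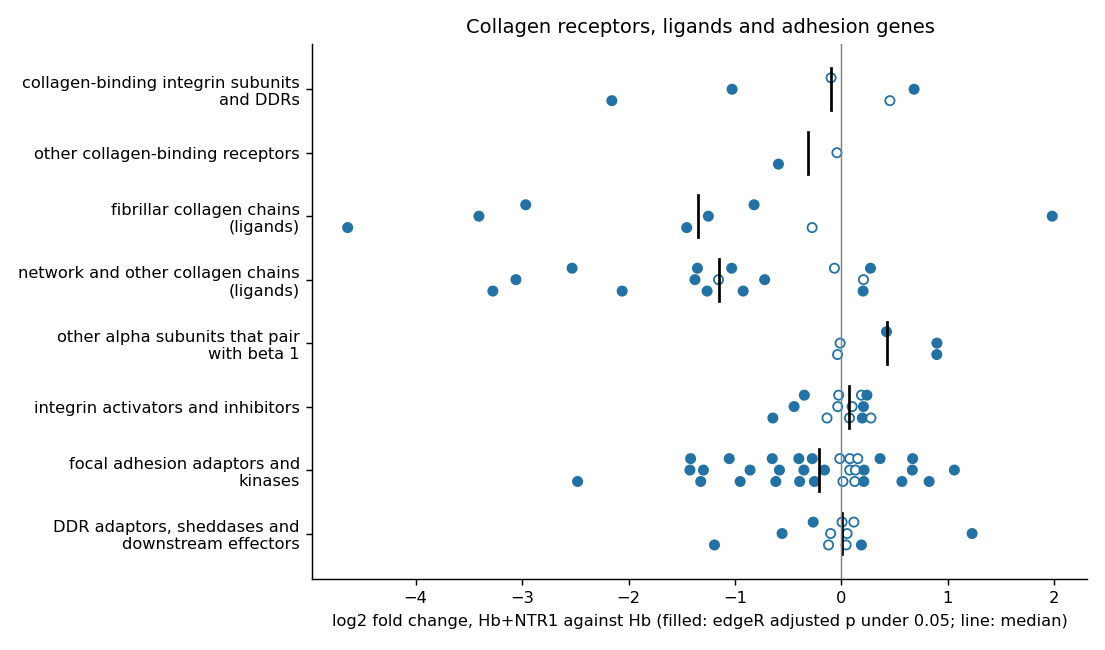
Log2 fold change of Hb+NTR1 against Hb for the tested genes of each list, with filled points for an edgeR adjusted p under 0.05 and a line at the median. The collagen chains lie mostly below 0, with medians of -1.35 and -1.16, and among the other alpha partners of beta 1, 3 lie above 0 and the 2 not called, Itga5 at -0.013 and Itga7 at -0.037, lie just below it.

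Integrins are switched on from inside the cell by talin and kindlin. Of 13 tested activators and inhibitors, 3 rose, 3 fell and 7 were not called in Hb+NTR1 against Hb. This is 46.2% called, below the 62.3% of all genes. The 3 that rose became 5 without Hb library 2, and 1 of them, Sharpin, lost its call in 10 of the 15 alternatives. The talin gene Tln1 and the kindlin gene Fermt2 were not called. The actin cross-linker Flna, which competes with talin for the beta chain, fell 1.56-fold from 1315 ± 172 to 841 ± 50.7 CPM, and Apbb1ip, which brings talin to the membrane, fell 1.36-fold from 27.7 ± 0.951 to 20.4 ± 1.35 CPM. Rapgef1, an exchange factor of the RAP1 pathway, fell 1.27-fold, and Krit1 rose 1.18-fold (edgeR adjusted p = 0.00270). Against control 5 rose, 5 fell and 3 were not called, or 76.9% called against 63.6% of all genes, and the 5 that fell became 3 with library totals alone. The inhibitors Itgb1bp1 and Sharpin were 1.36-fold and 1.27-fold higher there. With oxyhemoglobin alone 1 of 13 fell, Apbb1ip, from 36.1 ± 1.54 to 27.7 ± 0.951 CPM (edgeR adjusted p = 0.0131). That call ended without control library 1 or 3 (edgeR adjusted p = 0.0611 and 0.0783).

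Focal adhesions are where integrins join the actin cytoskeleton. Of 32 tested adaptors and kinases found there, 17 fell and 8 rose in Hb+NTR1 against Hb, at a median log2 fold change of -0.21, where 31.7% of all genes fell and 30.7% rose. Against control 16 fell and 8 rose, where 32.2% of all genes fell and 31.4% rose. Whether the list differs from other genes was not tested. The paxillin relative Tgfb1i1 fell 5.58-fold from 41.3 ± 4.45 to 7.41 ± 0.944 CPM, the scaffold Nedd9 fell 2.68-fold from 50.6 ± 1.47 to 18.8 ± 1.49 CPM, the tensin Tns1 fell 2.67-fold from 104 ± 13.2 to 38.8 ± 3.38 CPM and zyxin, Zyx, fell 2.50-fold from 236 ± 24.0 to 94.3 ± 2.36 CPM. With oxyhemoglobin alone 1 of 32 was called, Tns2, which rose from 180 ± 1.36 to 225 ± 24.3 CPM. By DESeq2, with library totals alone, with the replicate block and without Hb library 2, 2 genes were called higher. With no filter on low counts 2 were called higher and 1 lower.

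Of 11 tested genes that act with the discoidin receptors, 2 rose and 3 fell in Hb+NTR1 against Hb, or 45.5% called, below the 62.3% of all genes. The 2 that rose became 1 with no filter on low counts and without Hb library 1 or Hb+NTR1 library 2 or 3. Adam10, a protease known to shed Ddr1, rose 2.34-fold from 173 ± 11.9 to 404 ± 10.2 CPM (edgeR adjusted p = 4.23e-14). The collagen-degrading protease genes Mmp2 and Mmp14 fell, 2.29-fold from 176 ± 4.25 to 76.8 ± 1.71 CPM and 1.20-fold from 592 ± 25.3 to 492 ± 34.5 CPM. The regulatory subunit of PI3 kinase, Pik3r1, fell 1.47-fold. Against control 2 rose and 5 fell, or 63.6% called, the same share as over all genes. The 5 that fell became 3 with library totals alone and without control library 1 or 3 or Hb+NTR1 library 1 or 3. The 2 that rose became 1 with no filter on low counts and without control library 1 or 2 or Hb+NTR1 library 2 or 3. Among those that fell was Snai1, a transcription factor, 1.33-fold (edgeR adjusted p = 0.0217). The call of Snai1 ended by DESeq2, with library totals alone and without control library 1 or 3 or Hb+NTR1 library 1 or 3 (adjusted p = 0.0532 to 0.128). With oxyhemoglobin alone edgeR and DESeq2 called 0 of the 11, and 1, Pik3r1, had an unadjusted p under 0.05.

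The genes whose log2 CPM followed Itga11 most closely over the 9 libraries, among 10295 with a mean of at least 5 CPM, were Thbs3 (Pearson r = 0.987), Soat2 (0.984), Dnajb5 (0.983), Chst12 (0.980) and 1810032O08Rik (0.978). Enc1 (-0.980), Pdpn (-0.976), Rbm27 (-0.974), Mfap1b (-0.967) and Stx7 (-0.967) ran most clearly opposite. Thbs3, a thrombospondin, had 19.8 CPM in control, 19.1 CPM in Hb and 7.95 CPM in Hb+NTR1, and Pdpn, podoplanin, had 20.0, 21.5 and 31.4 CPM. All these values describe 9 libraries that share the same 3 groups. Such likeness was common: 852 genes, or 8.28%, had r above 0.9 and 958, or 9.31%, below -0.9. Ddr2 had r = 0.905, Itgb1 -0.907 and Ddr1 0.217 with Itga11. By Spearman rank 0 of these 10 genes were among the 5 most and 5 least like Itga11, and with a smaller prior count of 0.5 in the log2 CPM 7 were.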

How the data were processed

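RNA of the 9 libraries was poly(A)-selected and made into libraries with NEBNext kits, per the labels' protocols. Per the submitters' processing notes, the build was GRCm38 and the tools included HTSeq 0.10.0, HISAT2 2.1.0 and bcl2fastq 2.19.1.403. Strand setting, annotation release and treatment of reads shared by genes: not given in the sources used here. The deposited table holds raw counts per gene symbol for 54232 entries, and 98 that repeated a symbol and all its counts were removed. The authors' deposited comparison table gives, for Hb+NTR1 against control, each listed gene's log2 fold change with its p-value, raw and adjusted, and its test is not known here. Columns named N were taken as Hb+NTR1, because that table holds only N and C columns. Their numbers are not tied to labelled replicates and only name libraries.

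The analysis used edgeR 4.0.16 under R 4.3.3. filterByExpr with a minimum count of 10 kept 13810 genes, library sizes were scaled by TMM, and all 9 libraries entered 1 robust quasi-likelihood fit with a term for group. Tests were two-sided F tests with Benjamini-Hochberg adjustment over all genes tested and a threshold of 0.05. The SE is the log2 fold change over the square root of F. RPKM used the union of exons in GENCODE M21, and promoter windows came from RefSeq. The fit was also run on simulated counts with changes set in a small part of the genes, in the Hb group only. The outcome is not given here, and it does not speak for the comparisons of Hb+NTR1. Alternatives were other scalings, filters, DESeq2 1.42.0, only the 6 libraries compared, a replicate block and each library left out.

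The receptors and the gene lists were chosen with earlier results of these data known. Named genes were the 7 receptors, the called genes with the largest change from each list in each comparison (at most 4, reaching 5 CPM in the group where they were higher), and the 5 genes most like and the 5 least like Itga11. Protein sequences were planned but not used here.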

Additional observations from a re-analysis of the deposited data

How the results depend on the processing

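The calls of Itga11, Ddr2 and Itgb1 in both comparisons of Hb+NTR1 held in all 15 alternatives, and no receptor was called in Hb against control in any of 16. Over those alternatives the log2 fold change of Itga11 ran from -2.46 to -1.70 against Hb and from -2.72 to -1.95 against control, at adjusted p of at most 0.00499 and 0.00131 by edgeR or DESeq2. Itga10 alone among the receptors changed its call. With single libraries left out, oxyhemoglobin against control gave 285 to 1125 called genes, the highest without Hb library 2 and the others beyond 1.5 times at 315, 285 and 286 without control library 1, 2 and 3, and the number of pathway list genes called there ran from 8 to 17 around 13, the lowest without control library 3. The ratio of Itga11 to Itgb1 in Hb over that in control was 0.919 and ran from 0.851 to 1.02, turning above 1 without control library 1 (exact permutation p = 0.9). The cause of these shifts was not tested. With the longest transcript in place of the union of exons, RPKM of Itga1, Itgb1, Ddr1 and Ddr2 moved by more than their SD in at least 1 group and the order of the receptors held. With 13 to 75 counts per group, depth limits what can be said of Itga11, and more so of Itga1 and Itga2.

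A fit with the replicate block of control and Hb called 674 genes in Hb against control, against 504 without it, and no receptor. Deviations of same-numbered libraries correlated at 0.095, -0.023 and -0.049, and those of differently numbered ones ran from -0.116 to 0.139. With 3 libraries per group, centred within the group, these values cannot show whether the numbers paired the samples. No paired analysis was possible for Hb+NTR1 because its columns carry no labelled number.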
